A study of Mus musculus with 4 samples.

Results

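The S100 proteins are small calcium-binding proteins, and 8 of their genes gave a clear signal in mouse bone marrow granulocytes: S100a1, S100a4, S100a6, S100a8, S100a9, S100a10, S100a11 and S100a13. They were taken by gene symbol from the array's annotation, and each had 1 probe, so 8 of the 41174 non-control probes and 8 of 27674 gene names are described. The genes were chosen by their signal and their KO and WT values in these samples, so their differences between genotypes are a description, with no test. The cells, granulocytes labelled immature, came by sorting from marrow of C57BL/6 males, either wild type (WT, 2 arrays) or with a knockout of the microRNA gene miR-223 (KO, 2 arrays). The labels used here give no age, gate, allele design or breeding, and do not say that replicates came from separate animals, so the spread between replicates may be technical.

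S100 proteins carry a pair of EF-hands, helix-loop-helix folds whose loop typically, though not in every member, holds a calcium ion. Most work as dimers that expose a binding face when calcium rises. S100a8 and S100a9 pair to form calprotectin, an abundant cytosolic protein of neutrophils, which sequesters zinc and manganese from microbes and acts as an alarm signal when released. S100a4, S100a6, S100a10 and S100a11 bind annexins, myosin or other cytoskeletal and membrane partners, and are widespread in monocytes, macrophages and motile cells. miR-223 is a microRNA abundant in myeloid cells that lowers transcripts paired with its seed, the short 5′ stretch that finds targets.

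The mature miR-223-3p sequence removed in the KO, from the RefSeq table of GRCm38.p6 (chrX:96242884-96242905, plus strand), is shown with its seed (bases 2 to 8) in capitals, since it defines the comparison.
mmu-miR-223-3p: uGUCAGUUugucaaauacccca
The complement of the seed, AACTGAC, lay in 0 of the 8 S100 probes and in 0.372% of all 41174 probes, and its 6-letter core ACTGAC in 0 of 8 and in 1.41%. Probes are 60 bases of a transcript, so these letters were searched in a small stretch of each mRNA only.

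All 4 arrays lay on 1 slide, with WT and KO alternating in position, and were scanned once. Of the probes on an array 59.6% to 62.9% exceeded background clearly, and 0 spots saturated. The 75th percentiles of processed signal were 314 (WT replicate 1), 310 (WT replicate 2), 361 (KO replicate 1) and 422 (KO replicate 2). The 8 S100 probes were well above background on every array, with 0 saturated pixels and 0 outlier flags, and their brightest spot reached 61.0% of the scanner's limit. Values below are scaled log2 signals, the log2 of the processed spot signal minus the log2 of that array's 75th percentile, so 0 is the 75th percentile of an array and a difference of 1 is a doubling. Each probe binds its target with its own strength, so a signal is read across arrays for one probe and does not rank genes by abundance.

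S100a4, S100a10 and S100a6 stood highest in KO relative to WT, by 2.21-fold, 1.86-fold and 1.75-fold. S100a4 (metastasin), which binds non-muscle myosin and is made by motile cells and monocytes, was measured at chr3:90409842-90409902 (mm9, as for all probe positions below). Its scaled log2 signal was 4.23 in WT replicate 1, 4.30 in WT replicate 2, 5.42 in KO replicate 1 and 5.40 in KO replicate 2. Replicates lay within 0.07 of each other and the genotypes did not overlap, so the log2 difference (KO minus WT) of 1.14 ± 0.08 (SE from limma, n = 2 arrays per genotype) was many times the gap between replicates.

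S100a10 (p11), which forms a complex with annexin A2 that docks plasminogen and channel proteins at the membrane, was measured at chr3:93368437-93368496. Its signal on the WT arrays was 1.43 and 1.52, and on the KO arrays 2.35 and 2.39, a log2 difference of 0.89 ± 0.09. S100a6 (calcyclin), which binds several annexins and the ubiquitin ligase adaptor Cacybp, was measured at chr3:90418160-90418219. Its signal on the WT arrays was 6.74 and 6.63, and on the KO arrays 7.47 and 7.53, a log2 difference of 0.81 ± 0.09. For both genes the lowest KO array stood well above the highest WT array, by 0.83 for S100a10 and 0.73 for S100a6.

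Most listed markers of monocytes and eosinophils were also higher in KO. Of 11 monocyte markers 11 were higher in value, 10 with both KO arrays above both WT arrays (26.3% of all probes), with a median log2 difference of 0.76. Of 6 eosinophil markers 5 were higher, all 5 without overlap, with a median of 0.93 over the 6. The remaining gene, Ccr3, differed by -0.62 ± 0.19, with both KO arrays below both WT arrays. In both lists 0 passed limma's adjusted threshold of 0.05, and with the intensity trend in its variance prior 8 of the 11 and 5 of the 6 did, beside 5.03% of all probes that passed as higher. Csf1r, the receptor for macrophage colony-stimulating factor, differed by 0.76 ± 0.18 and Ccr2, a chemokine receptor of inflammatory monocytes, by 0.82 ± 0.09, whereas Ly6c2, whose protein also marks granulocytes, differed by 0.04 ± 0.10. Their part in the S100 values was not tested. In a bulk sample more cells of a type and more RNA per cell cannot be told apart.

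**Figure D1:**
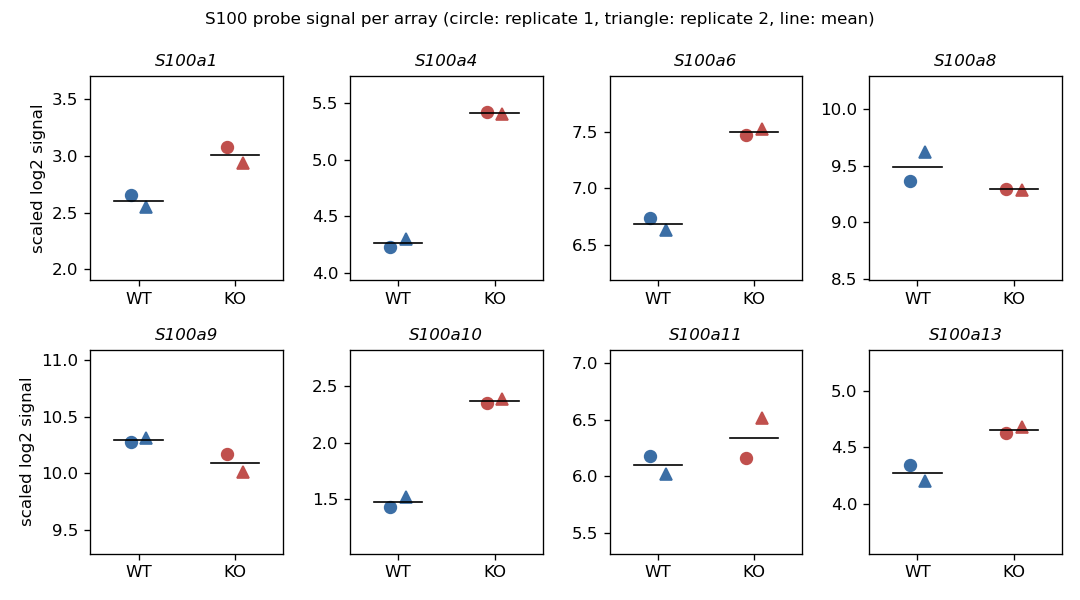
Scaled log2 signal (y axis; each panel spans the same log2 range around its own midpoint) of the 8 S100 probes on the 2 WT (blue) and 2 KO (red) arrays (x axis); circles are replicate 1, triangles replicate 2, and lines the group means. S100a4, S100a6 and S100a10 separate widely between genotypes, S100a11 overlaps, and S100a8 and S100a9 lie slightly lower in KO.

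S100a1 and S100a13 differed by less, and by nearly the same amount. S100a1, best known from heart muscle, where it acts on the calcium pump of the sarcoplasmic reticulum, was measured at chr3:90315133-90315192 and had signals of 2.66 and 2.55 in WT and 3.07 and 2.94 in KO. S100a13, which takes part in the non-classical release of Fgf1 and Il1a, was measured by a probe whose ends map to chr3:90319950-90328319 and had signals of 4.34 and 4.20 in WT and 4.63 and 4.68 in KO. Neither gene's genotypes overlapped. The log2 differences were 0.40 ± 0.10 for S100a1 and 0.38 ± 0.10 for S100a13, against gaps between replicates of 0.05 to 0.15.

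These genes are transcribed away from each other from starts 104 bases apart on chromosome 3 (RefSeq, GRCm38.p6). The bases between the starts, chr3:90514331-90514434 on the plus strand, are shown because they lie upstream of both genes.
S100a1-S100a13: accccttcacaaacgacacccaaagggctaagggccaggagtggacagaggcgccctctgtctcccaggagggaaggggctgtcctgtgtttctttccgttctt
The stretch has 58.7% G and C and holds none of the 5 motifs searched on both strands (the TATA box core TATAAA, the GC box GGGCGG, the E-box CANNTG, the C/EBP form TTNNGNAA and the ETS core GGAAGT).

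S100a11 (calgizzarin), a partner of annexin A1 in membrane repair, was measured at chr3:93330017-93330076. Its signal on the WT arrays was 6.17 and 6.02, and on the KO arrays 6.16 and 6.51, so KO replicate 1 fell between the WT arrays' values and only KO replicate 2 lay above both. The log2 difference of 0.24 ± 0.16 rested on that array: it was 0.06 without KO replicate 2 and 0.41 without KO replicate 1. A probe annotated NAP103812-1, with no gene symbol, begins 65 bases beyond the S100a11 probe in the same orientation. Its signals overlapped too, with a difference of 0.02 ± 0.14.

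S100a8 and S100a9, the calprotectin subunits, were marginally lower in KO at this scaling. S100a8 was measured at chr3:90473778-90473837 and its signal on the WT arrays was 9.37 and 9.62, and on the KO arrays 9.30 and 9.28. S100a9 was measured at chr3:90496585-90496644 and its signal on the WT arrays was 10.27 and 10.31, and on the KO arrays 10.17 and 10.02. Both KO arrays lay below both WT arrays, but only by 0.07 for S100a8 and 0.10 for S100a9, less than the widest gap between replicates of each gene (0.25 and 0.15). The log2 differences were -0.20 ± 0.12 for S100a8 and -0.20 ± 0.10 for S100a9, ratios of KO to WT of 0.87 for each.

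The direction for calprotectin changed with the scaling. Without any scaling between arrays S100a8 differed by 0.12 and S100a9 by 0.12 in the other direction, where the median of all probes was 0.29. Quantile normalization, which gives every array one distribution of signals, gave -0.02 for S100a8 and 0.15 for S100a9. Normexp background correction, fitted with control spots included, gave 0.33 and 0.25, but -0.11 and -0.19 when fitted without them. Median scaling gave -0.12 for both genes, as did the authors' deposited table. S100a8 also depended on single arrays, at -0.08 without WT replicate 2 and -0.33 without WT replicate 1, and S100a9 was -0.12 without KO replicate 2. The direction of the calprotectin difference was thus not settled on these arrays.

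The S100a8 probe lies over the coding stretch of a calcium-binding loop, which makes it the array feature that best shows the family's defining element. Its 60 bases are printed as in the array's annotation, with the 12 codons that fit the EF-hand loop pattern in capitals.
S100a8 probe: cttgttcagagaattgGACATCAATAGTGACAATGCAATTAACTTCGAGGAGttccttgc

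Differences relative to calprotectin do not depend on a scaling factor per array, because subtracting the mean log2 signal of S100a8 and S100a9 on the same array removes it. On this basis the KO minus WT difference was 1.35 for S100a4, 1.09 for S100a10, 1.01 for S100a6, 0.60 for S100a1, 0.58 for S100a13 and 0.44 for S100a11. All 6 genes were thus higher relative to the calprotectin pair, which their positive differences and the pair's negative ones above already imply. S100a11, whose genotypes overlap in scaled signal, stood at -3.65 and -3.94 in WT and at -3.57 and -3.14 in KO, so its highest WT and lowest KO values lay close together. Its relative difference fell to 0.22 without KO replicate 2 and to 0.16 with quantile normalization, which is no single factor per array.

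Across the 8 genes, 6 were higher in KO and 2 lower, with a median log2 difference of 0.39, whereas the median over the 25749 probes well above background on at least 2 arrays was -0.03. Of the genes, 5 of 8 had both KO arrays above both WT arrays, beside 26.3% of all probes tested, and 2 of 8 had both below, beside 32.8%. At least 1.5-fold higher in KO were 3 of 8, beside 5.19% of probes, and as much lower 0 of 8, beside 5.76%. With limma and Benjamini-Hochberg adjustment 0 probes passed an adjusted p of 0.05 (0% called; 6342 probes had an unadjusted p under 0.05). When limma's variance prior was allowed to follow signal intensity, 5.03% of probes passed as higher and 4.6% as lower, with 5 and 0 of the 8 genes among them. Since the genes were chosen from this contrast, nothing is read from these shares.

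**Figure D2:**
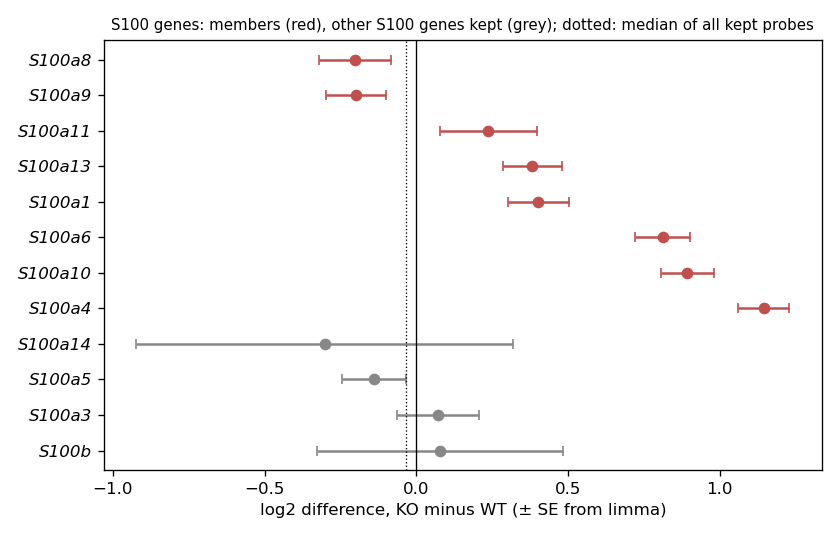
Log2 difference between KO and WT (x axis, error bars ± SE from limma, n = 2 arrays per genotype) for the 8 S100 genes described (red) and the 4 other S100 genes above background (grey); the dotted line is the median of all probes kept. The 8 genes run from -0.20 to 1.14, while the 4 others lie between -0.30 and 0.08, some with wide errors.

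Of 9 other S100 genes listed, 7 had a probe, and 4 of these were well above background on at least 2 arrays. S100a3, a hair-shaft protein, had signals of -2.97 and -2.80 in WT and -2.95 and -2.69 in KO, a difference of 0.07 ± 0.13. S100a5, best known from olfactory neurons, had signals of -4.85 and -4.98 in WT and -4.98 and -5.13 in KO, a difference of -0.14 ± 0.11 that is positive without scaling (0.18). S100a14, an epithelial member, differed by -0.30 ± 0.62 over signals that were above background on 3 arrays. S100b, the glial member, differed by 0.08 ± 0.40. S100a7a, S100a16 and S100g were not well above background on enough arrays, and S100a2 and S100z had no probe under that name.

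Most of the 8 genes sit in one cluster on chromosome 3. In order along the chromosome the measured genes were S100a1, S100a13, S100a14, S100a3, S100a4, S100a5, S100a6, S100a8 and S100a9, whose probes span 182 kb, and S100a11 and S100a10 lay 2833 kb further on, 38.5 kb apart. Neighbouring genes did not share one difference. S100a5 (-0.14) lies between S100a4 (1.14) and S100a6 (0.81), whose probes are 8.26 kb apart, and S100a8 (-0.20) follows S100a6. The S100a5 probe was dim, with processed signals of 9.86 to 12.1 beside 5911 to 17843 for S100a4, so its difference is a weak guide. In the 250 kb beyond S100a9 no gene was measured. Among 9 other genes measured within the cluster or in the 250 kb before S100a1, 3 were higher and 6 lower in KO. Their median was -0.01. They ran from -0.42 ± 0.09 for Crtc2, a CREB coactivator, to 0.61 ± 0.23 for AK021069, a transcript that lies between S100a3 and S100a4 and was dim.

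**Figure D3:**
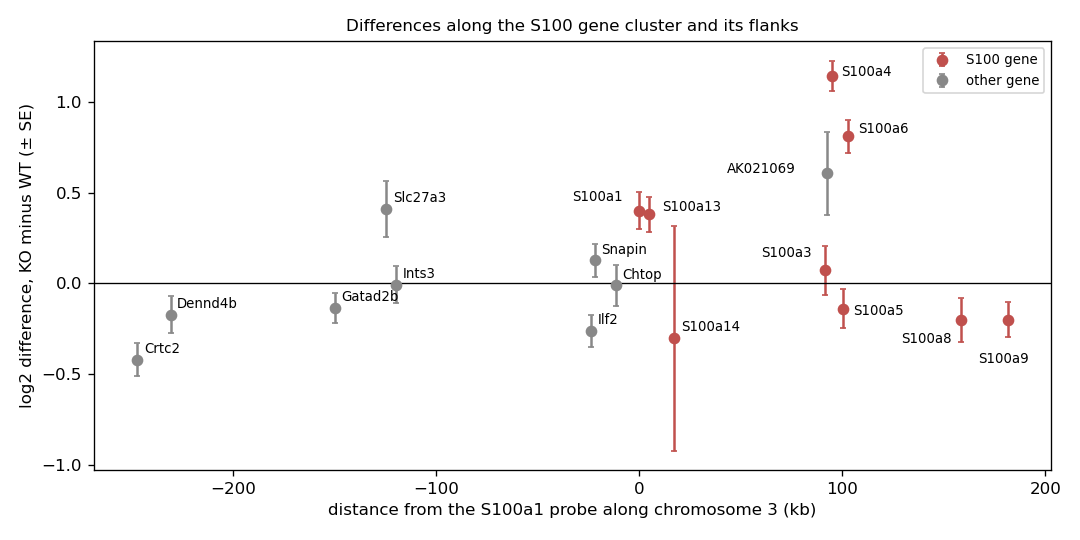
Log2 difference between KO and WT (y axis, error bars ± SE) against distance from the S100a1 probe along chromosome 3 (x axis, kb) for S100 genes (red) and other genes (grey) of the main cluster and the flank before S100a1 (none was measured in the flank beyond S100a9). S100a4 at 1.14 and S100a6 at 0.81 flank S100a5, a dim probe, at -0.14, and S100a8 and S100a9 lie at the right end at -0.20.

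The bases before 3 starts are shown, those of the S100 genes whose promoter window held TATAAA in the search described below. Positions are from RefSeq (GRCm38.p6), and 7 of the 8 genes matched the promoter table. S100a4 (chr3:90603670-90603769, plus strand), S100a8 (chr3:90668971-90669070, plus strand) and S100a9 (chr3:90695716-90695815, minus strand) are each shown over 100 bases, with TATAAA in capitals.
S100a4: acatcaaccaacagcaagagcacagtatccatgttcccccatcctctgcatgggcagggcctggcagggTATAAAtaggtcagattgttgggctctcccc
S100a8: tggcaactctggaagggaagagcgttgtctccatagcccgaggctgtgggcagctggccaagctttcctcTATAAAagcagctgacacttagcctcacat
S100a9: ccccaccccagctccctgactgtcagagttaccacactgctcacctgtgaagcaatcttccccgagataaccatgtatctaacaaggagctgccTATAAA
TATAAA, the core of a TATA box, begins 31 bases before the S100a4 start and 30 before that of S100a8, the usual place for a TATA box. In S100a9 it begins at the annotated start itself, so the window shown runs 6 bases past that start.

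Windows from 250 bases before to 50 after each start were searched on both strands, and shares refer to 32851 such windows of all genes. TATAAA was in 3 of the 7 S100 windows (S100a4, S100a8 and S100a9), beside 13.6% of all windows. TTNNGNAA, a form of the site bound by C/EBP factors of granulocytes, was in 2 of 7 (S100a8 and S100a9), beside 40.7%. GGAAGT, an ETS core such as PU.1 binds, was in 6 of 7, all but S100a6, beside 23.8%. The windows of S100a1 and S100a13 overlap, and their GGAAGT matches are the same site counted for both genes. GGGCGG, a GC box, was in 2 of 7 (S100a9 and S100a11), beside 35.7%, and the E-box CANNTG in 5 of 7, beside 72.3%. S100a11 had 79% G and C in its 100 upstream bases, whereas S100a4, S100a6, S100a8 and S100a9 each had 54%. TATAAA was thus found both in S100a4, the gene highest in KO relative to WT, and in the calprotectin pair. It was absent from the windows of S100a1, S100a6, S100a11 and S100a13, which were also higher in value in KO. A match is only a run of letters.

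Genes whose products bind S100 proteins, carry their signals, regulate them or share the EF-hand were taken from 5 lists, and 40 of the 43 listed were measured by their brightest probe. In KO 24 were higher and 16 lower, with a median log2 difference of 0.05 beside -0.02 over 16978 genes. Both KO arrays lay above both WT arrays in 19 and below in 9, beside 28% and 30.5% of all genes taken by their brightest probe. None passed limma's adjusted threshold (0 of 40; 15 had an unadjusted p under 0.05, beside 24.6% of all probes), and 6 passed as higher and 0 as lower with the intensity trend, beside 5.03% and 4.6% of all probes, shares against which the counts of each list below can be set.

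Annexins, calcium-dependent membrane-binding proteins that pair with S100 dimers, were higher for 6 of 8 and lower for 2, with a median of 0.26, and 2 passed with the intensity trend. Of the 6 higher in value, 1 overlapped between genotypes, and Anxa3 differed by 0.28 ± 0.09 but by -0.42 at its other probe. Anxa2, the partner of S100a10, had signals of 4.32 and 4.53 in WT and 4.84 and 4.89 in KO, a difference of 0.44 ± 0.11, and passed. Anxa5, which binds phosphatidylserine, had the largest difference of the list, from 4.25 and 4.16 in WT to 4.97 and 4.95 in KO (0.76 ± 0.09), and passed too. Anxa6 differed by 0.44 ± 0.12, though by 0.07 at its other probe and by -0.06 with normexp (0.29 when fitted without control spots). Anxa1, the partner of S100a11, differed by -0.08 ± 0.09 and Anxa11 by -0.19 ± 0.09, and both were positive without scaling (0.24 and 0.13). The annexin paired with S100a10 thus lay on the same side as S100a10, in the values as measured.

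Surface receptors for released S100 proteins were higher for 4 of 7 and lower for 3, with a median of 0.27, and 1 passed with the intensity trend. That gene was Ly96 (MD-2), the co-receptor that lets Tlr4 sense endotoxin, with signals of -1.61 and -1.66 in WT and -0.68 and -0.70 in KO (0.95 ± 0.08). However, normexp gave 0.19 ± 0.43 for Ly96, and 0.67 ± 0.09 when fitted without control spots. Cd14, the endotoxin co-receptor of monocytes, differed by 0.71 ± 0.23. Ager, the receptor RAGE, differed by -0.13 ± 0.10 and the scavenger receptor Cd36 by -0.09 ± 0.25, both from dim probes and both positive without scaling (0.19 and 0.23). The other probe of Cd36 gave 0.20.

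Intracellular targets were higher for 6 and lower for 3 of 9 measured, with a median of 0.03. Ahnak, the giant scaffold protein that binds the S100a10 and annexin A2 complex, differed by 0.75 ± 0.16 and passed with the intensity trend, although its probes ran from 0.27 to 1.05. Cacybp, the partner of S100a6, differed by 0.25 ± 0.10. Trp53 (p53, -0.15 ± 0.19) and its ubiquitin ligase Mdm2 (-0.14 ± 0.09) were lower in value by their brightest probes and positive without scaling (0.17 and 0.18), and the other probes gave 0.18 for Trp53 and -0.52 for Mdm2. Il1a and Fgf1, whose release involves S100a13, were not well above background on enough arrays.

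Transcription factors tied to S100 or granulocyte genes were higher for 3 of 6 and lower for 3, with a median of 0.03. Cebpa, a master regulator of granulocyte commitment, differed by 0.46 ± 0.12 and Stat3, which acts downstream of the granulocyte growth factor receptor, by 0.45 ± 0.12, and both passed with the intensity trend. Spi1 (PU.1) differed by -0.08 ± 0.09 and Hif1a by -0.07 ± 0.13, both positive without scaling (0.24 and 0.25). Cebpe had no probe under that name.

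Other EF-hand proteins were evenly divided, 5 higher and 5 lower of 10, with a median of -0.01 and 0 passing in either fit. Calm3, which encodes the calcium sensor calmodulin, differed by 0.28 ± 0.09 (0.03 at its lowest probe), whereas Calm2, which encodes the same protein, differed by -0.29 ± 0.09. Gca (grancalcin), an EF-hand protein of granulocytes, differed by -0.27 ± 0.09. Calm2 and Gca were positive without scaling (0.04 and 0.05). A shift of EF-hand genes in one direction was not seen in these values.

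The labelled cell type was checked against marker lists. All 14 granulocyte markers with a probe were measured. In KO 11 were higher and 3 lower in value. Both KO arrays lay above both WT arrays in 7 and below in 1, beside 28% and 30.5% of all genes taken by their brightest probe. With the intensity trend 3 passed as higher and 0 as lower, beside 5.03% and 4.6% of all probes. The 14 markers had a summed scaled signal (in multiples of each array's 75th percentile) of 3760 to 4177 in WT and 3541 to 4076 in KO. The primary granule gene Mpo differed by 0.05 ± 0.13 and the secondary granule genes Camp and Ngp by -0.05 ± 0.13 and -0.04 ± 0.10. The 3 that passed were the primary granule genes Prtn3 (0.72 ± 0.10) and Elane (0.50 ± 0.10) and Retnlg (0.76 ± 0.20), a resistin-like gene of neutrophils. The secondary granule gene Ltf, lactoferrin, was the lowest of the list at -0.44 ± 0.24 (-0.06 at its other probe), and the collagenase gene Mmp8 differed by 0.55 ± 0.28. Ly6g had no probe under that name.

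Summed signals of the other marker lists are given by genotype, not for ranking lists, since a few probes can make up most of a sum. The monocyte list summed to 624 to 628 in WT and 651 to 731 in KO, most of it from Ly6c2. Eosinophil markers summed to 11.2 to 13.02 in WT and 18.1 to 19.6 in KO, with 5 of 6 higher, among them Prg2 (1.51 ± 0.31) and Siglecf (0.87 ± 0.10), an eosinophil granule protein and a surface lectin, and with Il5ra not well above background. Macrophage markers summed to 13.3 to 14.8 in WT and 17.9 to 20.04 in KO, although only 4 of 8 were higher. Vcam1 (0.47 ± 0.12) made up most of the macrophage sum. With the intensity trend Vcam1 and Adgre1 (0.97 ± 0.12) passed as higher, and Cd163 (-0.866 ± 0.15) and Cd5l (-0.998 ± 0.12) as lower. The other 4 macrophage markers overlapped between genotypes. Erythroid markers summed to 44.5 to 45.9 in WT and 25.8 to 33.6 in KO, with 4 of 5 lower and with Klf1 not well above background. Nearly all of that sum came from Hba-a1 (-0.61 ± 0.16). Stem cell markers summed to 8.29 to 8.45 in WT and 11.9 to 15.03 in KO, with 3 of 4 higher, among them Cd34 (0.89 ± 0.19).

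B cell markers summed to 6.27 to 6.79 in WT and 7.24 to 9.22 in KO although 6 of 7 were lower. Most of that sum came from Cd79b, the only one higher (0.46 ± 0.13), which is part of the B cell receptor, and Ebf1 was not well above background. T cell markers summed to 0.99 to 1.03 in WT and 0.45 to 0.52 in KO, with 1 of 5 higher. Cd3d (-1.43 ± 0.08) made up most of that sum, while Cd3e, Cd3g and Lck overlapped between genotypes. Megakaryocyte markers summed to 1.35 to 1.52 in WT and 2.23 to 2.72 in KO, with 4 of 4 higher in value. However, the genotypes overlapped in 3 of the 4, all but Gp9 (1.19 ± 0.11). Dendritic cell markers summed to 4.95 to 5.72 in WT and 6.11 to 8.92 in KO, with 3 of 5 higher. Most of the dendritic sum came from Bst2 (0.61 ± 0.20), whereas Siglech differed by -1.34 ± 1.23. What these lists add to the S100 signals was not tested.

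**Figure D4:**
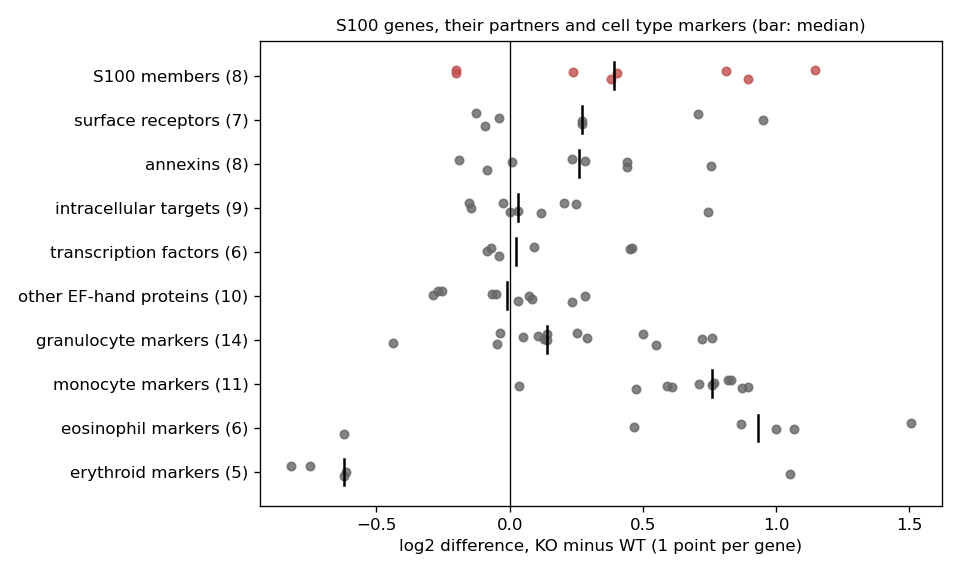
Log2 difference between KO and WT (x axis) for the 8 S100 genes (red), 5 lists of related genes and 4 lists of cell type markers (grey; 1 point per gene, vertical bars are medians, number of genes in brackets). Medians are 0.39 for the S100 genes, 0.26 for annexins, -0.01 for other EF-hand proteins, 0.76 for monocyte markers and -0.62 for erythroid markers.

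The 2 calprotectin genes did not have each other as closest match over the 4 arrays. Likeness was the root mean square distance between log2 values centred on each gene's mean, over 12918 other genes. For S100a8 the nearest were Phrf1, which encodes a PHD and RING finger protein (0.0069), Gatc, which encodes a subunit of a mitochondrial amidotransferase (0.011), and Dcakd, a putative kinase (0.013), and S100a9 ranked 831 at 0.090. For S100a9 the nearest were Wipf1, an actin regulator that binds the Wiskott-Aldrich protein (0.0047), Lipe, hormone-sensitive lipase (0.0093), and Zfp598, a sensor of collided ribosomes (0.013), and S100a8 ranked 1835. With 4 arrays and a small difference between genotypes, many genes lie close to any such profile. From both calprotectin genes the farthest of the 8 was S100a4, at distances of 0.68 from S100a8 and 0.67 from S100a9.

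S100a4 had the largest difference of the 8 genes in every processing alternative, though many of these could not change the order. S100a4 ran from 1.11 to 1.55 over 16 alternatives, S100a10 from 0.85 to 1.22, S100a6 from 0.76 to 1.28, S100a1 from 0.33 to 0.79, S100a13 from 0.31 to 0.82 and S100a11 from 0.06 to 0.79. These 6 were positive in all 16, but some alternatives could not alter a difference. The dim-probe filters, the intensity trend, the replicate block and 1 probe per gene leave these log2 differences unchanged. Median scaling, no scaling, the deposited table and leaving out outlier spots moved all 8 by nearly the same amount, which keeps the order. Only normexp, quantile normalization and arrays left out could change the order. S100a8 ran from -0.33 to 0.33 and S100a9 from -0.28 to 0.25. In the scaled values 26.3% of probes had both KO arrays above both WT arrays and 32.8% both below, whereas the split was 59.2% and 5.2% without scaling, 19.8% and 44.2% with normexp, 21.4% and 46.8% with normexp fitted without control spots, 31.8% and 21.2% with median scaling and 31.8% and 20.9% in the authors' deposited table.

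**Figure D5:**
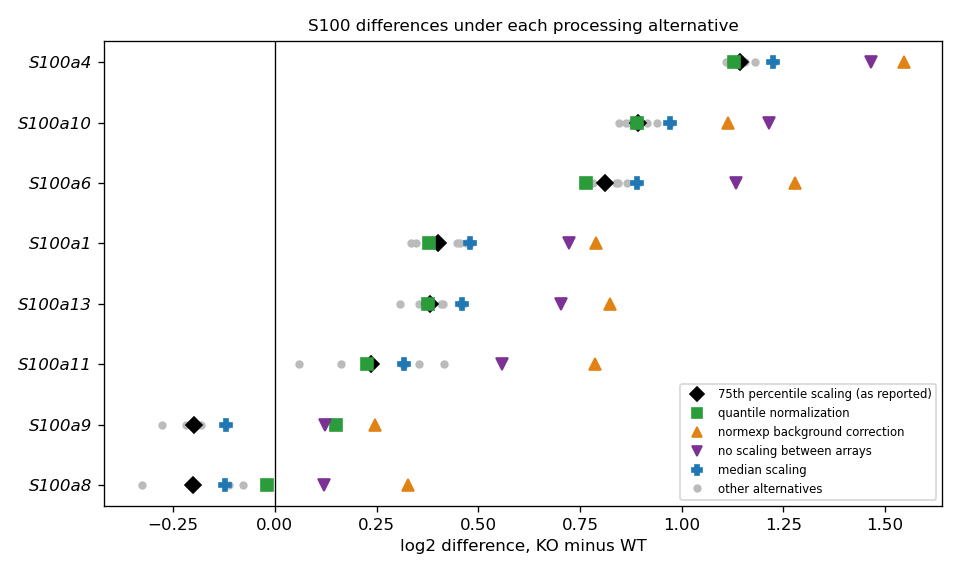
Log2 difference between KO and WT (x axis) of each S100 gene under the reported scaling (black diamonds) and 16 processing alternatives, with quantile normalization, normexp, no scaling and median scaling marked. S100a4, S100a10, S100a6, S100a1, S100a13 and S100a11 stay right of 0 throughout, while S100a8 and S100a9 cross it.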

How the data were processed

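Per the labels' protocols, total RNA was column-purified with DNase digestion and Cy3-labelled cRNA was hybridised in 1 colour. Per the file headers, spot values come from Agilent Feature Extraction 10.5.1.1, and probe positions are on mm9. The deposited intensity used here is the processed signal, from which background had been subtracted. The authors' deposited table holds log2 values that tracked log2 processed signal on each array (r of 0.9999 or more, column medians 4.68 to 4.69); its centring is not given in the sources used here.

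Log2 processed signals had each array's 75th percentile over non-control spots subtracted, and spots of a probe were averaged. Probes flagged well above background in 2 or more of the 4 arrays were kept (25749 of 41174) and fitted in R 4.3.3 with limma 3.58.1 (lmFit, eBayes, Benjamini-Hochberg, adjusted p under 0.05, no replicate block, prior degrees of freedom 1.99). The procedure was tested on simulated data. Names were updated through RefSeq (26933 probes by accession, 5570 by current symbol, 894 by synonym; 7777 kept the file's name). Lists use each gene's brightest probe.

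The S100 genes and lists were chosen with earlier results of these data known. Named were every S100 gene, in each related list the 2 genes with the largest difference in each direction, and the 3 nearest profiles of S100a8 and S100a9. Anxa2, Anxa3, the chromosome 3 neighbours and the markers were named after their values were seen. Alternatives changed the background correction, scaling, starting values, filters, variance prior, block, probe rule and arrays. Protein sequences were not used here, and some genes of these lists are not reported here by name.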

Additional observations from a re-analysis of the deposited data

How the results depend on the processing

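With limma, the 0 probes that passed became 3545 with normexp fitted without control spots, 5 with quantile normalization, 106 with median scaling, 267 in the authors' deposited table, 128 among probes well above background on all 4 arrays, 2480 with the intensity trend and, chosen after seeing the data, 2160 without scaling. The corresponding 0 of 40 related genes became 9 with normexp fitted without control spots, 1 in the deposited table, 1 among probes above background on all 4 arrays, 6 with the intensity trend and 8 without scaling. The count of S100 genes with both KO arrays on one side of both WT arrays, 7, ran from 5 to 8. Leaving out 1 array gave 0 probes, 0 related genes and 7 to 8 S100 genes, which is no sign of stability: 0 also passed with all arrays, and the share of all probes on one side then rises, to 34.7% above and 44.8% below without WT replicate 1, for example. The median difference of all probes was -0.03, but -0.31 with normexp, -0.10 with normexp fitted without control spots, 0.04 with median scaling, 0.05 in the deposited table, -0.11 with no filter on dim probes and 0.29 without scaling. The labels do not pair replicates by number (deviations of same-numbered arrays correlated at 0.03), and with the replicate number as a block 0 probes and 0 related genes passed.

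Signs changed as follows; the cause was not tested. Ly96 kept its sign but fell from 0.95 to 0.19 with normexp, and to 0.67 with normexp fitted without control spots. With normexp S100a8 was 0.33, S100a9 0.25, S100a3 -0.75, S100b -0.97, Anxa11 0.17, Anxa1 0.36, Anxa6 -0.063, Trp53 0.12, Mdm2 0.21, Spi1 0.17, Hif1a 0.034, Calm2 0.22 and Gca 0.20. With normexp fitted without control spots S100a3 was -0.060 and S100b -0.13. With quantile normalization S100a9 was 0.15. Hif1a was 0.0068 with median scaling and 0.0092 in the deposited table. Without scaling S100a8 was 0.12, S100a9 0.12, S100a5 0.18, S100a14 0.020, Ager 0.19, Cd36 0.23, Anxa11 0.13, Anxa1 0.24, Trp53 0.17, Mdm2 0.18, Spi1 0.24, Hif1a 0.25, Calm2 0.035 and Gca 0.053. With 1 array left out S100a3 ran from -0.055 to 0.20, S100a14 from -1.16 to 0.55, S100b from -0.44 to 0.60, Cd36 from -0.39 to 0.20, Trp53 from -0.39 to 0.081 and Hif1a from -0.22 to 0.075. With 2 arrays per genotype the number of arrays limits the precision, and an array left out leaves 1 that is assumed to vary like the others.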
